A study of Homo sapiens with 6 samples.

Results

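The arrays that carry replicate number 2 in their titles, 1 hybridised with control RNA and 1 with RNA of PRMT5-lowered cells, were compared with the 4 arrays of numbers 1 and 3. They were chosen by the title number alone and make up 2 of the 6 arrays of the study. The RNA on every array came from NCI-H929, per the labels an established myeloma cell line of human origin, kept in RPMI 1640 with 10% fetal bovine serum. Cells of 3 arrays, called PRMT5_down here, had received a lentivirus meant to lower PRMT5, an arginine methyltransferase. Their titles speak of sponges, whereas the protocol names a short hairpin RNA in the pLKO.1 vector, packaged in 293T cells, with puromycin selection. Cells of the other 3 arrays, the controls, are labelled as given control lentivirus sponges, and all cells were collected at the same time. The labels do not say what the arrays of one number share, be it a culture, a day or only a digit, nor that the numbers were separate cultures. The p-values therefore reflect the spread among these arrays, which may be technical. If the 2 arrays of a number shared a culture, the comparison is of 1 culture with 2, and only the fit with the number as a random block allows for that sharing.

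Growing blood cells adjust several gene programmes to their surroundings. Shortage of amino acids and other stresses raise the transcription factor ATF4, which drives amino acid synthesis and uptake genes, while cytokine signals through JAK kinases and STAT factors induce feedback genes such as SOCS2 and CISH. Protein folding, proteasome and sterol genes each have their own regulators, and histone genes are expressed mainly during DNA synthesis.

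Values are log2 signals per probe set, and differences are in log2 units, number 2 minus the mean of numbers 1 and 3. Values of a number are given with the control array first and the PRMT5_down array second. Background was the level under which 95% of olfactory receptor genes lay on each array, 4.88 to 4.98, and the array medians lay between 5.29 and 5.32. Of 18155 genes, 10272 exceeded background on every array and 6779 on none. The number of arrays limits the precision of every value. The identity of the cells went partly against the label. Of 29 measured plasma and B cell genes, 16 exceeded background on every array and 11 on none. The plasma cell genes IRF4, CD38 and TNFRSF17, among the 11, with highest signals of 3.24, 2.63 and 2.72, lay under background on every array, while the erythroid genes ALAS2, GATA1 and KLF1 lay between 9.67 and 10.57. Of 19 measured erythroid transcription factors 17 exceeded background on every array and 2 on none, and of 13 heme synthesis genes 11 and 1. PRMT5 itself, the targeted gene, stood at 10.35 and 9.65 in number 2, 9.93 and 8.63 in number 1 and 10.30 and 9.37 in number 3, lower in PRMT5_down than in control within each number.

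The planned test called no gene. With treatment as a covariate, limma gave 0 of 18155 genes an adjusted p under 0.05, a percentage of 0%, and the lowest adjusted p was 0.0729. At an unadjusted p under 0.05 it had 1881 genes, or 10.4%, where chance gives 907.75. With the number as a random block, 0 were called, the lowest adjusted p was 0.161, and 950, or 5.23%, had an unadjusted p under 0.05. In the planned fit, the difference between numbers 1 and 3 counts as error, and these numbers differed widely from each other. When each number was its own level, a fit chosen after the data had been seen, limma called 5325 genes, or 29.3%, between numbers 3 and 1 and 2558 genes, or 14.1%, between number 2 and the mean of the others, 1324 higher (7.29%) and 1234 lower (6.8%).

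A gene is called set apart below when it had an adjusted p under 0.05 in that limma fit and both number 2 arrays lay beyond all 4 others in the same direction. This held for 1087 genes on the higher side, or 5.99%, and 920 on the lower side, or 5.07%. Among genes that exceeded background on every array the shares were 9.47% and 7.53%. Lists whose members nearly all exceeded background are better set against these shares. Number 2 lay beyond all 4 other arrays, in either direction, for 3929 genes, or 21.6%. For number 1 this share was 32.1% and for number 3 35.3%. A lack of overlap at a set-apart gene is part of the rule and no further support. The fit has 2 residual degrees of freedom, and its error is the spread within numbers, not the spread between them. With any 1 array left out the fit keeps 1 residual degree of freedom, too few to call genes by. Each such statement below therefore rests on all 6 arrays. The rule set apart even more genes in number 1, 3867 or 21.3%, and in number 3, 4074 or 22.4%, and number 2 was therefore the least distinct of the 3 by this count. The planned fit turned to number 1 or number 3 gave 589 calls (3.24%) and 346 (1.91%). Of the 2007 set-apart genes, 1746 exceeded background on every array and 101 on none, and all 2007 differed in the same direction in control and PRMT5_down cells, as the rule requires.

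Across all genes, the difference of number 2 in control arrays and the one in PRMT5_down arrays, which share no array, correlated at r = 0.72, a description across genes that are not independent replicates. Of all genes 173, or 0.953%, differed at least 2-fold, 43 higher (0.237%) and 130 lower (0.716%). The median difference over all genes was -0.01, which the joint normalization holds near 0. The interaction of treatment with number 2 was called by limma for 0 genes, or 0%. At an unadjusted p under 0.05 it had 29, or 0.16%, far fewer than the 907.75 that chance gives. In that fit too the difference between numbers 1 and 3 counts as error, so the 0 calls do not show equal treatment differences. Chromosome medians ran from -0.03 to 0.03 over 23 chromosomes. The 3′ minus 5′ signal of actin was 1.02 and 1.02 in number 2, 1.09 and 1.22 in number 1 and 0.73 and 0.84 in number 3, so number 2 lay between the others. The labelling spikes averaged 7.06 and 7.14 in number 2, between 6.83 and 6.86 in number 1 and 7.34 and 7.29 in number 3. The 3′ minus 5′ signal of GAPDH was 0.10 and 0.06 in number 2 and 0.10 to 0.14 in the others. The part of these controls in the gene differences was not tested.

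**Figure D1:**
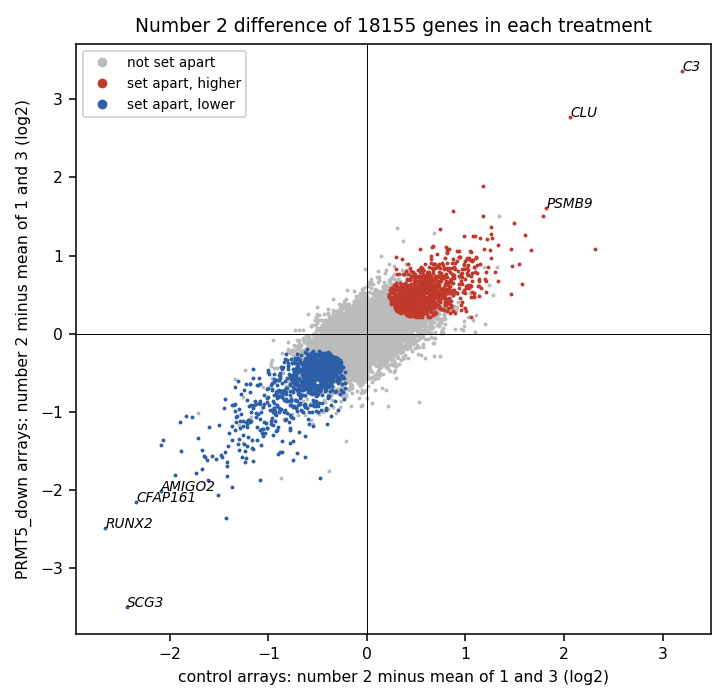
Each point is 1 of 18155 genes, plotted by the number 2 difference (log2, number 2 minus the mean of numbers 1 and 3) in control arrays on the x axis and in PRMT5_down arrays on the y axis, with set-apart genes in red (1087 higher) and blue (920 lower). Set-apart genes lie at the upper right and lower left, as the rule requires, and C3, CLU, SCG3 and RUNX2 lie farthest out.

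The widest fitted differences were in single genes of unlike function. C3, the central complement component, was 7.76 and 7.86 in number 2, 4.49 and 4.20 in number 1 and 4.63 and 4.79 in number 3. It was above background only in number 2, at 7.81 ± 0.07 (SD, n = 2) against 4.53 ± 0.25 (SD, n = 4). Such an SD, here and below, runs over arrays of both treatments and is not a spread between replicates of 1 condition. C3 was at least 7.27-fold higher in number 2 (fitted difference 3.28, SE 0.19). For a gene under background on every array of one side, such a bound sets the mean of the other side against the background level, and the fitted difference is no exact size. The limma adjusted p of C3 was 0.0729 in the planned fit, 0.161 with the number as a random block and 4.8e-05 with each number as a level. CLU, a secreted chaperone, was 7.22 and 7.84 in number 2, 4.91 and 4.81 in number 1 and 5.40 and 5.33 in number 3, a difference of 2.42 that shrank to 1.19 with the mean of its probe sets. Both number 1 arrays of CLU lay under background, so its difference is no exact size either. For C3 and CLU the groups did not overlap, as the rule for set-apart genes requires. On the lower side, SCG3, a secretory granule protein, was 4.28 and 3.69 in number 2, 6.86 and 7.21 in number 1 and 6.57 and 7.16 in number 3. It was under background in number 2 and above it in the other 4 arrays, at least 4.16-fold lower (fitted difference -2.97, or -1.71 with the mean of its probe sets). RUNX2, a bone and haematopoietic transcription factor, was 3.92 and 3.54 in number 2, 6.45 and 5.11 in number 1 and 6.70 and 6.94 in number 3, also under background in number 2 only. Its lowest other array was PRMT5_down number 1, and number 2 was at least 2.65-fold lower (fitted difference -2.57, or -1.34 with the mean of its probe sets).

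The lower gene with the smallest p was SCN9A, a voltage-gated sodium channel, at 3.67 and 3.66 in number 2, 5.30 and 5.39 in number 1 and 5.39 and 5.39 in number 3. The other 4 arrays lay within 0.09 of one another, and number 2 lay under background, at least 1.39-fold lower. The fitted difference was -1.70 (SE 0.08, limma adjusted p = 0.0729 as planned and 0.161 with the number as a random block). DENND1A, an activator of the GTPase RAB35, differed by -1.57, the zinc finger factor IKZF4 by -1.28, the calcium-binding protein S100P by -1.52, the death domain adaptor CRADD by -1.16, and the imprinted zinc finger gene PLAGL1 by -1.14. The cilia-associated CFAP161 was 6.72 and 6.84 in number 2, 9.33 and 9.04 in number 1 and 8.79 and 8.95 in number 3, without overlap. EPAS1, which encodes hypoxia-inducible factor 2 alpha, was 6.93 and 6.95 in number 2, 8.19 and 8.93 in number 1 and 8.89 and 8.70 in number 3. Both number 2 arrays lay 1.24 or more under the lowest of the others. The EPAS1 difference was -1.74 (SE 0.22, limma adjusted p = 0.111 as planned and 0.52 with the number as a random block). Of 28 measured hypoxia and HIF target genes 2 were set apart higher and 2 lower, with a median of -0.04. These are 7.14% each, against 5.99% and 5.07% of all genes. Of the 28, 25 exceeded background on every array, and among all genes that did so the shares were 9.47% and 7.53%. AMIGO2, a cell adhesion protein, differed by -2.05, the neuropeptide precursor TAC3 by -1.89 (-0.91 with the mean of its probe sets), the carbonic anhydrase CA13 by -1.79, and the transcription factor SOX5 by -1.76. Numbers 1 and 3 differed from each other in some of these, as SOX5 shows with 8.06 and 8.24 in number 1 and 6.74 and 6.71 in number 3, both above the 5.67 and 5.69 of number 2. Also on the lower side were the phosphatase PTPRR (-1.56), the annexin ANXA3 (-1.24), the BMP co-receptor HJV, the ubiquitin ligase HECW2 and FAM47E. HJV, HECW2 and FAM47E lay under background in number 2 and were at least 2.9-fold, 2.21-fold and 1.53-fold lower. With the mean of probe sets the fitted difference of HECW2, -1.61, was -1.05 and that of FAM47E, -1.88, was -0.59. All genes of this paragraph with a value were set apart.

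At least 2-fold differences beyond all other arrays numbered 41 on the higher side and 123 on the lower. Among higher ones, beside C3 and CLU, were TEX19 (1.53), the redox-linked nuclear protein PIR (1.45) and the phospholipase PLAAT4 (1.35). Smaller but even differences on the higher side were those of NKAP (0.96), FAM174A (1.25), C19orf38 (1.00), PHTF1 (0.83), the splicing factor SYF2 (0.75), the mitochondrial protein NIPSNAP1 (0.93), the sterol synthesis scaffold ERG28 (0.80) and the lectin receptor KLRF1 (0.94). All 15 genes with the smallest p on each side had a limma adjusted p between 0.0729 and 0.102 in the planned fit. With the number as a random block their limma adjusted p lay between 0.161 and 0.484. SYF2 was 0.29, ERG28 0.22, KLRF1 0.52 and DENND1A -0.58 with the mean of their probe sets, over 1.5 times smaller than by the brightest.

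**Figure D2:**
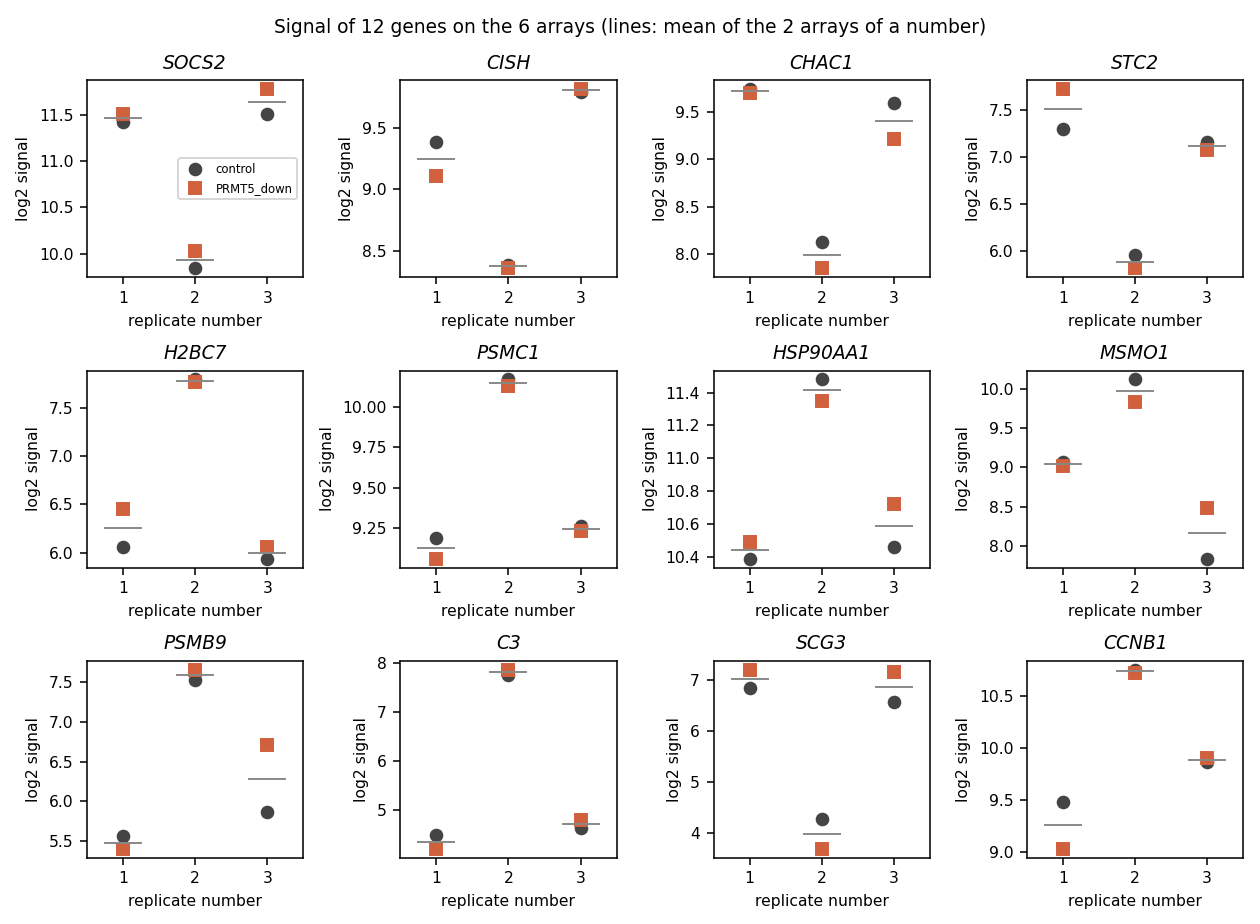
Log2 signal of 12 genes (y axis) against replicate number (x axis), 1 point per array, grey circles for control and orange squares for PRMT5_down, with a line at the mean of the 2 arrays of a number. C3 reaches 7.76 and 7.86 in number 2 and stays at 4.20 to 4.79 elsewhere, while SOCS2 lies at 9.84 and 10.03 in number 2 and at 11.42 or more elsewhere.

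Many targets of ATF4 were lower in number 2. Of 35 measured genes of its integrated stress response 16 were set apart lower (45.7%, where all genes have 5.07% and genes that exceeded background on every array 7.53%), 1 higher, and the median difference was -0.33 against -0.01 over all genes. The planned limma fit called none of them. Amino acid supply and other stresses act through ATF4 on these genes. CHAC1, a glutathione-degrading enzyme, was 8.13 and 7.85 in number 2, 9.74 and 9.70 in number 1 and 9.59 and 9.21 in number 3. Both number 2 arrays lay below all others, and the difference was -1.57 (SE 0.16, 2.97-fold). The limma adjusted p of CHAC1 was 0.102 as planned, 0.383 with the number as a random block and 0.00038 with each number as a level. The secreted glycoprotein STC2 was 5.96 and 5.82 in number 2, 7.30 and 7.72 in number 1 and 7.16 and 7.08 in number 3, with no overlap and a difference of -1.43 (SE 0.21). Mitochondrial PCK2, a gluconeogenic enzyme, differed by -1.20, the stress cytokine GDF15 by -1.09, and the cysteine-forming enzyme CTH by -0.96. GDF15 was 11.10 and 10.94 in number 2, 11.72 and 11.69 in number 1 and 12.33 and 12.69 in number 3, so number 3 lay above number 1 and number 2 below both. Serine synthesis genes PSPH and PHGDH differed by -0.83 and -0.38, the mitochondrial one-carbon enzyme SHMT2 by -0.51, the pseudokinase TRIB3 by -0.72, the phosphatase subunit PPP1R15A by -0.63 and the mTORC1 inhibitor DDIT4 by -0.73. In contrast DDIT3, which encodes the stress factor CHOP, was 8.94 and 8.74 in number 2, 7.98 and 7.81 in number 1 and 8.48 and 8.38 in number 3, higher in number 2 by 0.68. ATF4 itself differed by -0.05 and asparagine synthetase, ASNS, by -0.11, neither set apart. Against number 1 the list's median was -0.34 and against number 3 -0.41. ATF3 shows a member that numbers 1 and 3 disagree on, at 8.63 and 8.39 in number 2, 9.88 and 10.62 in number 1 and 8.47 and 8.47 in number 3. Number 2 lay near number 3 there and not near number 1.

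An ATF4 composite element, TGATGCAA, lies in the promoter of CHAC1, and the 250 bases before its RefSeq start (GRCh38.p14, chr15:40953221-40953470, plus strand) are shown to locate it, with the element, which reads on the opposite strand here, in capitals.
CHAC1: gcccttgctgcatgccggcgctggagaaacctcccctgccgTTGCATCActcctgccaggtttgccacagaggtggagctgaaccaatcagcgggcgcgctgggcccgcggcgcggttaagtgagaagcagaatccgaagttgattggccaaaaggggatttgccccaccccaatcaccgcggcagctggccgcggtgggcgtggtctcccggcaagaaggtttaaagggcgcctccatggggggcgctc
The single match starts 209 bases before the gene start. On either strand TGATGCAA was in the promoters of 1 of 15 set-apart members of the list with a promoter in the table and 1 of 15 of the other members, and in 0.82% of 27305 promoters. A match is a description of the letters only.

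Amino acid transporters had 6 of 19 members (31.6%, against 5.07% of all genes) set apart lower and 1 higher, with a median of -0.26. Of the 19, 8 are also in the ATF4 list. SLC6A9, a glycine transporter, was 9.01 and 9.01 in number 2, 9.88 and 9.78 in number 1 and 10.04 and 9.95 in number 3, with no overlap and a difference of -0.90. The neutral amino acid transporters SLC38A2 and SLC38A1 differed by -0.60 and -0.39, the cationic transporter SLC7A1 by -0.55, the large neutral transporter SLC43A1 by -0.60 and the lysosomal SLC36A1 by -0.36 (-0.14 with the mean of its probe sets). The cationic amino acid exchanger SLC7A6 was higher, by 0.58. Of 19 genes of mTORC1 and nutrient sensing, 7 (36.8%, against 5.07% of all genes) were set apart lower and 2 higher, with a median of -0.15. This list shares 2 genes with the ATF4 list. EIF4EBP1, the translation inhibitor that mTORC1 phosphorylates, was 10.60 and 10.55 in number 2, 11.55 and 11.51 in number 1 and 11.53 and 11.49 in number 3. The 4 other arrays were within 0.06 of one another. Number 2 differed by -0.95 (SE 0.08, limma adjusted p = 0.0928 as planned and 0.394 with the number as a random block). FLCN and FNIP2, partners in amino acid signalling at the lysosome, differed by -0.87 and -0.66, the related inhibitor EIF4EBP2 by -0.52, the Rag GTPase RRAGC by -0.49 and the leucine sensor SESN2 by -0.57. SESN1 and RPS6KB1 were higher, by 0.47 and 0.40.

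A few cytokine feedback genes were lower in number 2, 4 of 20 measured (20%, against 5.07% of all genes), with 1 higher and a median of -0.11 over the list, -0.03 against number 1 and -0.26 against number 3. SOCS2, an inhibitor of cytokine receptor signalling, was 9.84 and 10.03 in number 2, 11.42 and 11.51 in number 1 and 11.51 and 11.78 in number 3, at 9.94 ± 0.13 (SD, n = 2) against 11.56 ± 0.16 (SD, n = 4). Both arrays of number 2 lay under all 4 others. The SOCS2 difference was -1.62 (SE 0.11, 3.07-fold, limma adjusted p = 0.0755 as planned and 0.196 with the number as a random block). The kinase PIM1 was 10.46 and 10.38 in number 2, 11.64 and 11.40 in number 1 and 11.85 and 11.59 in number 3, a difference of -1.20, and CISH, a further STAT5-driven inhibitor, was 8.39 and 8.36 in number 2, 9.38 and 9.11 in number 1 and 9.79 and 9.81 in number 3, a difference of -1.15. SOCS1 differed by -1.61, but numbers 1 and 3 were far apart, at 6.62 and 6.38 against 8.61 and 8.34, with number 2 at 5.96 and 5.79 nearer to number 1. JAK1 was higher, by 0.43, and EPOR, the erythropoietin receptor, was -0.34, not set apart. Other members, among them SOCS3 (-0.00), BCL2L1 (-0.01) and STAT5A (0.22), were not set apart.

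The promoter of CISH is shown for its spaced STAT elements, TTCNNNGAA, printed in capitals (GRCh38.p14, chr3:50611775-50612024, minus strand, 250 bases before the RefSeq start).
CISH: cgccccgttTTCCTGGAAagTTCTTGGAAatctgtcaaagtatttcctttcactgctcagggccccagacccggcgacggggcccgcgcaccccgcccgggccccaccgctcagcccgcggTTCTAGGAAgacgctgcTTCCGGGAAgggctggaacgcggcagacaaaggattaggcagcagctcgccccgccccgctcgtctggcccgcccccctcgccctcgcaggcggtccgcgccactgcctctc
It holds 4 matches, at 241, 230, 129 and 112 bases before the start. The motif, which reads the same on both strands, was in 1 of 4 set-apart members with a promoter, in 0 of 13 other members and in 6.78% of all promoters. Immediate early genes, which respond within minutes to growth signals, had 7 of 34 members set apart lower (20.6%, against 5.07% of all genes) and 0 higher, with a median of -0.15. The list shares 1 gene with the ATF4 list and 1 with the cytokine feedback list. BTG1, an antiproliferative protein, was 9.74 and 9.67 in number 2, 10.44 and 10.74 in number 1 and 10.34 and 10.59 in number 3, the zinc finger genes KLF10 and KLF6 differed by -0.74 and -0.73 and the phosphatase DUSP1 by -0.61. FOS differed by -0.37, IER2 by -0.45 and JUND by -0.35. FOS was -0.83 with the mean of its probe sets and BTG1 -0.55. NR4A1 went the other way, by 0.35, and was not set apart.

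Many proteasome subunits were higher in number 2. The proteasome degrades ubiquitin-tagged proteins, and 14 of 34 measured genes were set apart higher (41.2%, where all genes have 5.99% and genes that exceeded background on every array 9.47%) and 0 lower, with a median of 0.34. PSMC1, an ATPase of the regulatory particle, was 10.17 and 10.13 in number 2, 9.19 and 9.06 in number 1 and 9.26 and 9.23 in number 3. All 4 other arrays lay within 0.20 of one another and 0.87 or more under number 2. The PSMC1 difference was 0.97 (SE 0.09, limma adjusted p = 0.0928 as planned and 0.399 with the number as a random block). The regulatory particle genes PSMD1, PSMD6, PSMD3 and PSMC6 were higher by 0.82, 0.73, 0.67 and 0.66, and the core genes PSMB6, PSMA2 and PSMB3 by 0.57, 0.54 and 0.51. PSMB5, a catalytic core subunit, was -0.20, not set apart. Against number 1 the median was 0.25 and against number 3 0.39.

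Many chaperones were higher as well. Of 28 genes of the heat shock and chaperone list 13 (46.4%, against 5.99% of all genes) were set apart higher and 0 lower, with a median of 0.35. CRYAB, a small heat shock protein, was 7.06 and 6.73 in number 2, 5.82 and 5.68 in number 1 and 5.65 and 5.51 in number 3, a difference of 1.23 (SE 0.11) that was 0.66 with the mean of its probe sets. HSP90AA1, the inducible cytosolic HSP90, was 11.48 and 11.35 in number 2, 10.39 and 10.49 in number 1 and 10.46 and 10.72 in number 3, with number 2 clear of the other arrays by 0.63 and a difference of 0.90 (SE 0.12). The disaggregase cofactor HSPH1 was higher by 0.81, the mitochondrial pair HSPE1 and HSPD1 by 0.69 and 0.52, HSPB1 by 0.60 and the chaperonin subunits CCT3 and CCT5 by 0.37 and 0.35. HSPA1B, a near-identical copy of HSPA1A and so uncertain as a single gene, was 9.22 and 9.19 in number 2, 7.98 and 7.61 in number 1 and 8.70 and 9.06 in number 3. PRMT5_down number 3 came within 0.13 of number 2 there. HSPA8, the constitutive HSP70, was 13.13 and 12.99 in number 2, 12.43 and 11.73 in number 1 and 12.91 and 12.77 in number 3, with the lowest value in PRMT5_down number 1. HSF1, the regulator of many of these genes, was -0.15.

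The HSPA8 promoter is printed to show where heat shock elements, GAANNTTC, stand (capitals, GRCh38.p14, chr11:123062137-123062386, minus strand, 250 bases before the RefSeq start).
HSPA8: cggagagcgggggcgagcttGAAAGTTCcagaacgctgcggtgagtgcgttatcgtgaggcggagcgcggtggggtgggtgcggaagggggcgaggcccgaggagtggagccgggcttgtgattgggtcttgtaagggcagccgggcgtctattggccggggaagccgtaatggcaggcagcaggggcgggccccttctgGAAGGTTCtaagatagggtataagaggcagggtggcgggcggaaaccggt
The 2 matches start 230 and 50 bases before the gene start. The element was in 4 of 11 set-apart members, in 6 of 14 others and in 5.85% of all promoters, and reads alike on both strands.

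A share of sterol and fatty acid synthesis genes was higher in number 2. Of 20 genes of sterol synthesis and uptake 7 (35%, against 5.99% of all genes) were set apart higher and 0 lower, with a median of 0.28. MSMO1, a sterol demethylase, was 10.12 and 9.83 in number 2, 9.07 and 9.02 in number 1 and 7.84 and 8.49 in number 3. Number 2 was above both other numbers, and number 1 was above number 3, with a difference for number 2 of 1.37 (SE 0.39). HMGCS1, at the entry of the mevalonate pathway, was 8.90 and 8.43 in number 2, 7.63 and 7.80 in number 1 and 7.02 and 7.79 in number 3, and IDI1, INSIG1, FDPS, SQLE and MVD were higher by 0.87, 0.80, 0.72, 0.64 and 0.54. SREBF2, which drives these genes, was 0.04. Of 17 fatty acid synthesis genes 6 (35.3%) were set apart higher and 0 lower, with a median of 0.18. The desaturase SCD was 11.61 and 11.59 in number 2, 11.13 and 11.02 in number 1 and 11.05 and 11.11 in number 3, without overlap, at 0.52, the fatty acid synthase FASN was 0.46, the desaturase FADS1 0.56, the elongase ELOVL5 0.40 and citrate lyase ACLY 0.38. ACACA, acetyl-CoA carboxylase, was 0.57 with its brightest probe set but -0.28 with its most variable one, so its direction depends on the probe set. ME1 (-0.46) and FADS2 (-0.17) were not set apart.

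**Figure D3:**
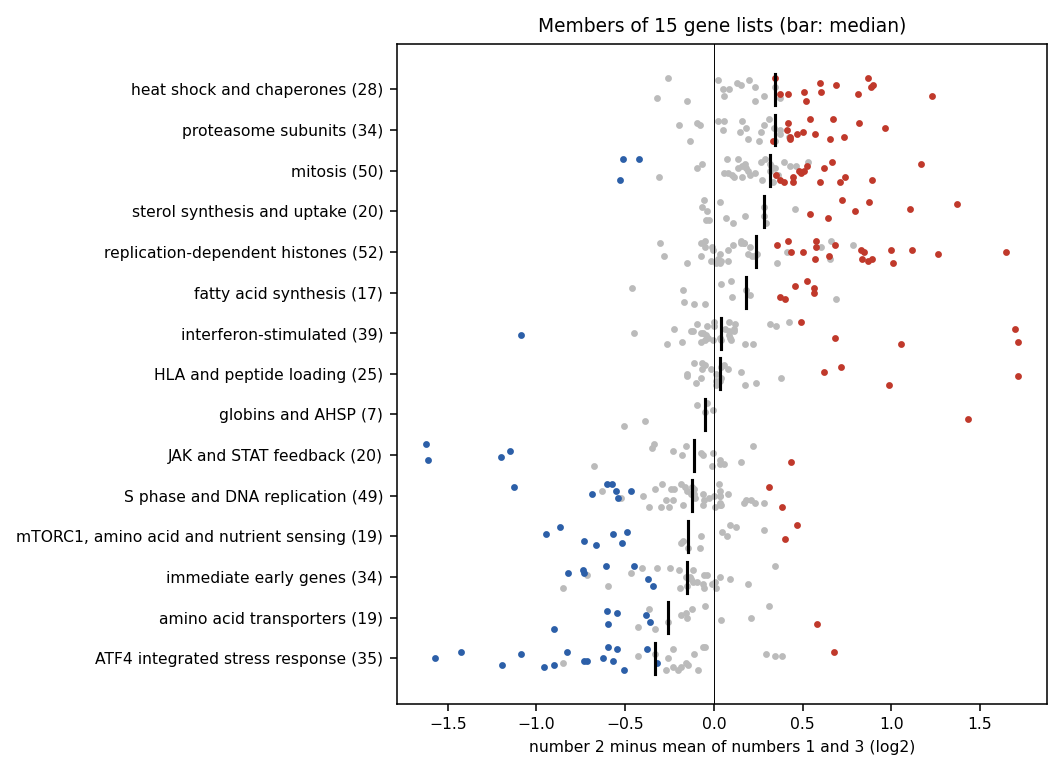
Difference of number 2 (x axis, log2, number 2 minus the mean of numbers 1 and 3) for each member of 15 gene lists (rows, with the number of measured members), 1 point per gene, red or blue where set apart higher or lower and grey otherwise, with a black bar at the median. Heat shock, proteasome and sterol genes lie mostly to the right with medians of 0.35, 0.34 and 0.28, and ATF4 genes to the left with -0.33.

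A few antigen-processing genes were higher, without the rest of their lists. PSMB9, an immunoproteasome subunit, was 7.53 and 7.66 in number 2, 5.56 and 5.40 in number 1 and 5.86 and 6.71 in number 3. PRMT5_down number 3 was nearest to number 2, and the difference of 1.71 (SE 0.37) was 1.08 with the mean of its probe sets. Its neighbour in the genome, the peptide transporter TAP1, was 6.89 and 6.94 in number 2, 5.80 and 5.90 in number 1 and 5.94 and 6.08 in number 3, without overlap. TAP1 differed by 0.99 (SE 0.10, limma adjusted p = 0.102 as planned and 0.399 with the number as a random block). PSMB8 and ERAP2 were set apart at 0.72 and 0.62, but PSMB8 was under background on all 6 arrays and ERAP2 above it on 1, and by the mean of probe sets they were 0.33 and 0.29. HLA-B (0.04), HLA-C (0.06), TAP2 (-0.07) and B2M (0.18) were not set apart, and the list of 25 genes had 4 higher (16%, against 5.99% of all genes), 0 lower and a median of 0.04.

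Interferon-stimulated genes had 5 of 39 (12.8%, against 5.99% of all genes) set apart higher and 1 lower, with a median of 0.04, and 18 of the 39 were above background on no array. PSMB9 is counted both here and in the HLA list. IFIH1, a sensor of double-stranded RNA, was 5.62 and 5.66 in number 2, 3.71 and 4.84 in number 1 and 2.91 and 4.30 in number 3, above background only in number 2 and at least 1.62-fold higher there (fitted difference 1.70, 0.98 with the mean of its probe sets). IFI6, a mitochondrial interferon-induced protein, was 7.11 and 7.40 in number 2, 6.25 and 6.26 in number 1 and 5.87 and 6.42 in number 3, at 1.06, and SP100, of the nuclear PML bodies, was 0.69 (0.21 with the mean of its probe sets). The exonuclease ISG20 was lower, at 6.01 and 6.45 in number 2, 7.20 and 7.82 in number 1 and 6.91 and 7.34 in number 3, a difference of -1.09. Interferon-stimulated genes such as IFIT1 (-0.03), OAS2 (0.00) and MX1 (0.18) were not set apart.

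Many replication-dependent histone genes were higher in number 2, with 19 of 52 (36.5%, against 5.99% of all genes) set apart higher and 0 lower and a median of 0.24. Background was exceeded by 30 of the 52 on every array and by 17 on none. These genes are near-identical copies, so single members are uncertain, and their messages mostly lack poly(A) tails. H2BC7, an H2B gene, was 7.79 and 7.76 in number 2, 6.06 and 6.45 in number 1 and 5.94 and 6.06 in number 3, with no overlap. H2BC7 differed by 1.65 (SE 0.15, limma adjusted p = 0.0928 as planned and 0.383 with the number as a random block). H4C5, an H4 gene, was 8.05 and 7.87 in number 2, 6.79 and 6.88 in number 1 and 6.79 and 6.92 in number 3, the H2A gene H2AC17 differed by 1.27, H2BC15 by 1.01, H2AC7 by 1.00, H4C2 by 0.58 and H3C4 by 0.57. Linker histone genes H1-2 (0.21), H1-4 (-0.05) and H1-5 (-0.01) were not set apart. SLBP, the histone stem-loop binding protein, was 0.38 and set apart.

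The promoter of H2BC7 carries the octamer ATTTGCAT that is common in H2B genes, printed in capitals in the 250 bases before its RefSeq start (GRCh38.p14, chr6:26199266-26199515, plus strand).
H2BC7: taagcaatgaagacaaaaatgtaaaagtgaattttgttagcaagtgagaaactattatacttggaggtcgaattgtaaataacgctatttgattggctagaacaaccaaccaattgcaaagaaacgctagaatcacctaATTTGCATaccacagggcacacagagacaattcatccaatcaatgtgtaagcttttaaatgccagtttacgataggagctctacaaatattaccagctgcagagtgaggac
Its only match starts 111 bases before the gene start. The octamer, on either strand, was in 12 of 19 set-apart histone genes, in 11 of 28 others and in 1.66% of all promoters.

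Mitosis genes differed chiefly from number 3. Of 50 members 16 (32%, against 9.47% of genes that exceeded background on every array) were set apart higher and 3 lower, with a median of 0.32, but the median against number 1 was 0.06 and against number 3 0.55. CCNB1, cyclin B1, was 10.75 and 10.72 in number 2, 9.48 and 9.03 in number 1 and 9.86 and 9.90 in number 3, above both other numbers, with a difference of 1.17 (SE 0.27). The kinesin KIF20A was 9.36 and 9.40 in number 2, 8.84 and 8.68 in number 1 and 7.96 and 8.47 in number 3, where number 1 stood between numbers 2 and 3. CKS2, a CDK subunit, and the kinesin KIF2C were even in numbers 1 and 3 and higher by 0.71 and 0.60, and BUB1, a checkpoint kinase, by 0.74. CDC20, the activator of the anaphase complex, was higher by 0.40. FOXM1, PBK and CDCA3 were lower, with differences of -0.51, -0.53 and -0.42 (CDCA3 -0.27 with the mean of its probe sets). Of 49 S phase genes 7 (14.3%, against 7.53% of genes that exceeded background on every array) were set apart lower and 2 higher. Their median was -0.12, with -0.18 against number 1 and -0.06 against number 3. HELLS, a chromatin remodeller, was 5.70 and 5.42 in number 2, 6.84 and 7.05 in number 1 and 6.46 and 6.39 in number 3, a difference of -1.13 (SE 0.23). GINS3 and GINS2 of the replicative helicase differed by -0.69 and -0.57, UHRF1 by -0.60, thymidine kinase TK1 by -0.55 and MCM5 by -0.47, while MCM7 (0.03) and PCNA (-0.16) were not set apart. RFC4, a clamp loader, was higher by 0.31.

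**Figure D4:**
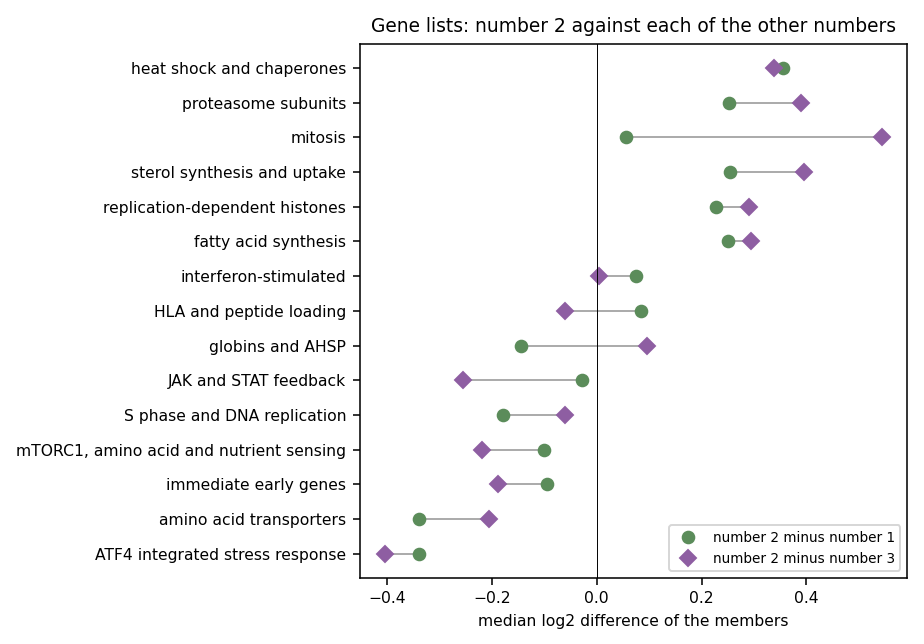
Median log2 difference of the members of 15 gene lists (x axis) between number 2 and number 1 (green circles) and between number 2 and number 3 (purple diamonds). The mitosis list sits at 0.06 and 0.55, whereas ATF4 genes sit at -0.34 and -0.41 and heat shock genes at 0.36 and 0.34.

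Of 11 listed globin and AHSP genes 7 were measured, with 1 set apart higher (14.3%, against 5.99% of all genes) and 0 lower. Of 7 measured genes, HBD, the delta globin, was set apart at 7.27 and 7.24 in number 2, 5.73 and 6.24 in number 1 and 5.60 and 5.71 in number 3. HBD was higher by 1.44 (SE 0.18, limma adjusted p = 0.111 as planned and 0.481 with the number as a random block). In contrast HBB, beta globin, was -0.01 and HBE1, embryonic globin, -0.04. AHSP, the chaperone of alpha globin, was 5.85 and 7.04 in number 2, 6.74 and 8.75 in number 1 and 5.39 and 6.92 in number 3, highest in PRMT5_down number 1 and with overlapping groups. The difference of -0.51 was 0.29 against number 3 alone. HBQ1, theta globin, was -0.39 and HBM, mu globin, -0.05, the latter under background on all arrays. Marker lists of other cells gave few set-apart genes, and the shares over all genes are 5.99% higher and 5.07% lower. The counts, higher then lower, were 2 and 2 of 24 red cell membrane genes, 1 and 2 of 19 erythroid factors, 0 and 0 of 21 megakaryocyte, 0 and 2 of 29 plasma and B cell, 0 and 1 of 19 T and NK cell, 0 and 0 of 19 monocyte and granulocyte, 0 and 0 of 13 eosinophil and mast cell, 0 and 2 of 15 epithelial and fibroblast and 0 and 1 of 11 293T genes. Their mean signals on the number 2 arrays were 7.66 and 7.81 for red cell membrane genes and 5.49 and 5.45 for plasma and B cell genes, within or near the ranges of the other arrays, 7.59 to 8.10 and 5.49 to 5.58. A different mix of cells and a different amount of RNA per cell cannot be told apart in bulk samples.

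Medians of other large groups ranged from -0.11 to 0.11, and the shares set apart over all genes are 5.99% higher and 5.07% lower. Among genes that exceeded background on every array they are 9.47% and 7.53%, and nearly all members of these groups did so. Of 64 ribosomal protein genes 0 were set apart, with a median of 0.03. Of 68 nuclear-encoded respiratory chain genes, all above background on every array, 5 were set apart higher (7.35%) and 1 lower (1.47%), with a median of 0.11. Both shares are under those of all genes that exceeded background on every array. Of 58 mitochondrial ribosomal protein genes 9 were higher (15.5%) and 2 lower (3.45%), with a median of 0.09. Of 35 genes of the ER unfolded protein response 4 were higher (11.4%) and 2 lower (5.71%), with a median of -0.11, and of 28 p53 targets 3 and 3 (10.7% each). Within the PRMT5 complex, its partner WDR77 was 9.41 and 9.60 in number 2, 9.69 and 9.92 in number 1 and 10.10 and 10.17 in number 3, lower in number 2 with a difference of -0.47 and set apart, while PRMT5 differed by 0.44 (limma adjusted p = 0.708 as planned) and was not. The difference of PRMT5_down from control for PRMT5 was -0.70 in number 2 and -1.12 on average in numbers 1 and 3. The interaction fit did not call this gap, but it counts the difference between numbers 1 and 3 as error and cannot show equality.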

How the data were processed

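The log2 signals of 49372 probe sets were used as deposited. The authors made them with RMA, according to the submitters' processing notes. Version and chip definition were not given in the sources used. RMA treats all arrays jointly, so a shift shared by most genes would not show. Of the probe sets, 79 were controls, 45064 had 1 gene symbol, 1756 several and 2473 none in the annotation used. Symbols were updated for 45037 through RefSeq identifiers. Each of 18155 genes was represented by its probe set of highest mean over 6 arrays. Linear models in limma 3.58.1 (R 4.3.3, moderated by eBayes, with Benjamini-Hochberg over all genes, threshold 0.05) compared number 2 with numbers 1 and 3, with treatment as covariate.

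The 2 arrays of each number deviated together from the treatment means (r across genes of 0.82, 0.72 and 0.79 for numbers 1, 2 and 3, over the minimum of 0.1). For number 2 this is the same correlation as the one given in the Results, not a further result. A pairing by number thus rests on the data and not the labels. It entered the fit with the number as a random block and the fit with each number as a level, but not the planned fit. The members and the 51 gene lists were chosen with earlier results of these data known. The 15 lists described, the fit with each number as a level and the rule for set-apart genes were chosen after values had been seen. Genes were named by rule: the 15 with the smallest p in each direction among genes above background on at least 2 arrays, up to 5 of each list by smallest p, PRMT5, and up to 10 in each direction that differed at least 2-fold beyond all other arrays. One gene under this rule is not reported here. Other genes named were chosen after their values were seen, among them those at the largest sizes within lists and those without a difference. Promoters are the 250 bases before RefSeq starts (GRCh38.p14), searched on both strands. The scripts were tested on simulated data. Alternatives covered the scaling, filters, choice of probe set, variance model, reference number and left-out arrays.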

Additional observations from a re-analysis of the deposited data

Results flagged for a closer look

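Probe sets that match several gene symbols or none were left out of the gene comparisons, and a signal was present in them too, at a share near that of the genes. Of 4229 such probe sets, 434, or 10.3%, against 11.1% of all genes, were set apart in number 2 by the same rule, 263 higher and 171 lower, and limma's planned fit called 21, or 0.497%. Of the 30 set-apart probe sets with the smallest p in the fit with each number as a level, 19 had no gene name here. Of these 18 were lower in number 2, by differences of -1.99 to -1.13. Some of the 18 had much the same values on each array and need not be separate transcripts. Another was 5.80 and 5.91 in number 2, 6.01 and 6.00 in number 1 and 8.49 and 8.44 in number 3, so its difference came mainly from number 3. A probe set of CPZ and GPR78 was 4.77 and 4.42 in number 2, 5.97 and 5.43 in number 1 and 7.96 and 7.25 in number 3 (control first). The one shared by HSPA1A and HSPA1B was 11.70 and 11.73 in number 2, 9.85 and 9.71 in number 1 and 10.84 and 11.16 in number 3, so number 2 was highest.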

How the results depend on the processing

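The planned comparison called 0 genes, and 0 with any 1 array left out (range 0 to 0). It also called 0 with the number as a replicate block (950 at an unadjusted p under 0.05) and against number 3 alone (4772 unadjusted). The number called was 107 without the treatment term, 1047 against number 1 alone, 2 after another quantile normalization, 4 with trend and robust variance, 1083 with array weights, whose estimation stopped before convergence, and 2558 with each number as a level. The genes set apart numbered 1894 to 2306 under other normalization, filters, probe set rules and variance models, but 0 to 0 with 1 array left out, when 1 residual degree of freedom is left. Between numbers 1 and 3 the count was 5325, 4873 to 5722 under those alternatives and 0 to 2732 with 1 array left out. The correlation of the 2 treatments' differences was 0.78 over genes above background on all arrays. Of 106 named genes 4 turned sign anywhere: ACACA to -0.28 (most variable probe set), AHSP to 0.29 (number 3 alone), HBM to 0.015 (number 1 alone) and HBE1 to 0.065 (number 3 alone). With 1 array left out HBM ran from -0.14 to 0.04 (0.04 without control replicate 2), HBE1 from -0.10 to 0.0157 (0.0157 without control replicate 1). Of 15 list medians, those of globins (-0.15 to 0.10) and of HLA genes (-0.06 to 0.11) turned sign, and mitosis ranged from 0.06 to 0.55. The choice of probe set moved 22 named genes by over 1.5 times. The cause was not tested. Depth does not apply to arrays, and genes near background have the least certain differences.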
